A study of Mus musculus with 18 samples.

Results

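Interferon response genes are the genes that a cell switches on when it meets an interferon, and 41 of them, chosen by symbol, were followed in microglia of the mouse striatum. All 41 matched an identifier in the count table of 55536 genes, and all 41 reached 1 CPM (counts scaled to a common library size) in at least 3 of the 18 labelled samples, as did 17329 genes in all. The microglia were pulled from the dissociated tissue by bead-bound antibodies to CD11b, which myeloid cells carry on their surface, and all samples came from C57BL/6 mice that the sources describe as adult. The 4 groups were WT (5 samples, replicates 1, 2, 6, 7 and 8), Tyrobp-KO (3 samples, replicates 15, 19 and 20), Q175 (5 samples, replicates 3, 4, 9, 14 and 17) and Q175;Tyrobp-KO (5 samples, replicates 5, 11, 12, 13 and 16). Q175 mice were heterozygous for a knock-in allele of Huntingtin with an expanded CAG repeat, and serve as a model of Huntington's disease. Tyrobp-KO mice lack both copies of *Tyrobp* in every cell of the body, and the Q175;Tyrobp-KO mice carry both changes. *Tyrobp* encodes DAP12, an adaptor through which *Trem2* and other receptors of myeloid cells signal. The comparisons ask what the Huntingtin allele, the loss of *Tyrobp*, and the loss of *Tyrobp* in Q175 mice changed in these genes.

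Type I interferons bind a receptor made of IFNAR1 and IFNAR2, whose kinases JAK1 and TYK2 activate the transcription factor complex ISGF3, which holds STAT2 and IRF9 and binds the interferon-stimulated response element (ISRE) before the start of its target genes. Interferon gamma acts through IFNGR1 and IFNGR2 and leads to binding at another element, GAS. Many targets act against viruses, some are sensors or transcription factors that feed back on the response, and microglia with raised interferon response genes are known from infection, ageing and models of neurodegeneration.

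Sequences before the start site were not themselves used to choose the members. The members were chosen as interferon response genes, however, so a raised share of the elements named above is not independent of that choice. RefSeq promoter windows of GRCm38.p6 were at hand for 32 of the 41 members, and the 250 bases before the start were searched on both strands for an ISRE core, GAAANNGAA, and for a GAS element, TTCNNNGAA. The ISRE core was present in 17 of the 32 members (53.1%), against 8.18% of the 27025 genes with such a window. A GAS element was present in 6 of the 32 (18.8%), against 8.13% of these genes. The following 120 bases end at the base before the start site and are printed 5′ to 3′ on the strand of the gene, with ISRE cores on either strand in capitals. *Isg15*, *Ifit1*, *Oas3*, *Irgm1* and *Gbp2* are shown as members of separate families with the core, and *Ifi44* and *Samd9l* as those with the smallest p in the comparison of Tyrobp-KO with WT.
Isg15, chr4:156200819-156200938, minus strand: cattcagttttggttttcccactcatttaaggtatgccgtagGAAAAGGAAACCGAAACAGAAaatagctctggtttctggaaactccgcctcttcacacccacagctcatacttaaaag
Ifit1, chr19:34640769-34640888, plus strand: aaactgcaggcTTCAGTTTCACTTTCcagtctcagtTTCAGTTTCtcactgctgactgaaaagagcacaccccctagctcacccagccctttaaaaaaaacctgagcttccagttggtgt
Oas3, chr5:120777660-120777779, minus strand: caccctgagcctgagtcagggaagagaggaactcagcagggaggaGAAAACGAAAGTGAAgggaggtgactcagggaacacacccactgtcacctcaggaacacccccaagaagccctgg
Irgm1, chr11:48871421-48871540, minus strand: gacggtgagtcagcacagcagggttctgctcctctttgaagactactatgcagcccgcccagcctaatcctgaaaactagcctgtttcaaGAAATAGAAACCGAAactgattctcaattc
Gbp2, chr3:142620543-142620662, plus strand: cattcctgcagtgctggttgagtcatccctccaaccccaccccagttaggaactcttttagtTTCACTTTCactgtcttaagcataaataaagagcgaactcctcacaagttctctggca
Ifi44, chr3:151749911-151750030, minus strand: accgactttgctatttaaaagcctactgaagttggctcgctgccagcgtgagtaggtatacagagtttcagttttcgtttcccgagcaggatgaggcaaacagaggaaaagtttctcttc
Samd9l, chr6:3399572-3399691, minus strand: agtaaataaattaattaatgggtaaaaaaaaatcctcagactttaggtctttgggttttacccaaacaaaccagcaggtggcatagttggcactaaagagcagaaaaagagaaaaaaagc
Cores followed each other with overlap in *Isg15*, where 3 lay between 78 and 58 bases before the start, and in *Oas3* and *Irgm1*, with 2 each. In *Ifit1*, 3 cores were read on the opposite strand, and the 2 that began 109 and 103 bases before the start overlapped as well. In *Gbp2* 1 core lay between 58 and 50 bases before the start. *Ifi44* and *Samd9l* held no match to these letters in the 250 bases, which says nothing about binding there. The other members with a core were *Bst2*, *Cxcl10*, *Gbp3*, *Gbp7*, *Ifih1*, *Ifit3*, *Igtp*, *Oas1a*, *Rsad2*, *Slfn5*, *Stat2* and *Trim30a*.

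The members lay on 14 chromosomes, and 17 of the 41 had another member within 1 Mb, as in the Ifit cluster of chromosome 19, the Oas cluster of chromosome 5 and the Gbp cluster of chromosome 3. Of the 3 members on chromosome 7, which carries *Tyrobp*, the nearest was 74.0 Mb from it. Exons of 14 members share bases with another annotated gene, among them *Igtp* with *Irgm2*, *Irf7* with *Phrf1* and *Cxcl10* with *Art3*. The libraries did not mark the strand, so reads of such overlaps could not be assigned with certainty. Near-identical relatives, such as *Ifit3* and *Ifit3b*, *Oas1a* and *Oas1g*, the Gbp genes and the family of *Ifi204*, may also share reads.

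Total counts were between 11260410 and 29771983 per sample. All 20 microglial markers, among them *P2ry12* and *Tmem119*, were detected in every sample, with a summed level between 17360 and 33250 CPM. *Tyrobp* was between 198 and 442 CPM in WT and Q175 samples and between 9.59 and 22.3 CPM in the samples without *Tyrobp*. Astrocyte markers summed to between 830.5 and 7423 CPM, with the highest sums in Q175 replicate 14, Tyrobp-KO replicate 20 and Q175;Tyrobp-KO replicate 5. These 3 samples also had the highest glia and neuron marker score, so the counts of members were computed without them as well. For this score, the mean log2(CPM + 1) of the markers was taken for astrocytes, for neurons and for oligodendrocytes. Each of these means was standardised over the 18 samples, and the 3 were averaged. Microglial markers had no part in the score. By the labels, 1 of 5 WT, 2 of 3 Tyrobp-KO, 4 of 5 Q175 and 2 of 5 Q175;Tyrobp-KO samples came from females. Nothing in the sources says whether samples of a group were processed on separate days, so p-values measure the spread between these samples.

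The interferon response genes were low to moderate in abundance, and most of them varied between samples of the same genotype more than the median gene did. Values are CPM normalised with edgeR's TMM factors. The median over samples was above 10 CPM for 23 of the 41 members and under 5 CPM for 11. Per kb of exonic length, which allows genes to be compared, median levels were highest for *Lgals3bp* (30.7 CPM per kb), a secreted glycoprotein, for *Trim30a* (25.8 CPM per kb), and for *Bst2* (21.1 CPM per kb), and lowest for *Oas3* (0.13 CPM per kb) and *Ifi44* (0.0881 CPM per kb). The SD within groups of log2(CPM + 1) had a median of 0.63 over the 41 members and of 0.34 over the 17329 genes at 1 CPM in at least 3 samples. These sets of genes were not matched for level. Among the members it ran from 0.17 for *Stat2* to 0.94 for *Cxcl10*.

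Many members had their highest or lowest values in the same samples of a genotype. In WT replicate 6, 22 of 41 members had their lowest WT value. Tyrobp-KO replicate 15 held the highest Tyrobp-KO value of 30 of 41 members, and replicate 19 the lowest of 31. Q175 replicate 17 held the highest Q175 value of 35 of 41, while replicates 4 and 9 held the lowest of 18 and 19. Among Q175;Tyrobp-KO samples, replicate 11 held the highest value of 32 of 41 and replicate 5 the lowest of 38. Of the 17329 genes, Tyrobp-KO replicate 15 held the highest group value of 28.2%, Q175 replicate 17 of 29.7% and Q175;Tyrobp-KO replicate 11 of 30.5%. The lowest group value was held for 31.6% of these genes by WT replicate 6, for 23.4% by Tyrobp-KO replicate 19, for 31.7% and 18.7% by Q175 replicates 4 and 9 and for 38.5% by Q175;Tyrobp-KO replicate 5. Over all 18 samples, Q175;Tyrobp-KO replicate 11 had the highest value of 19 members, and Q175 replicates 9 and 4 had the lowest of 16 and 14. Summed microglial markers were also highest of their groups in Q175 replicate 17 (30920 CPM) and Q175;Tyrobp-KO replicate 11 (27980 CPM). They were lowest in Q175 replicate 4 (17360 CPM) and Q175;Tyrobp-KO replicate 5 (19030 CPM). In Tyrobp-KO samples, however, replicate 19 had the highest sum (33250 CPM). WT replicate 6 was not the lowest of its group either, at 26150 CPM in a WT range of 23440 to 28700 CPM. The part of microglial content in these levels was not tested.

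**Figure D1:**
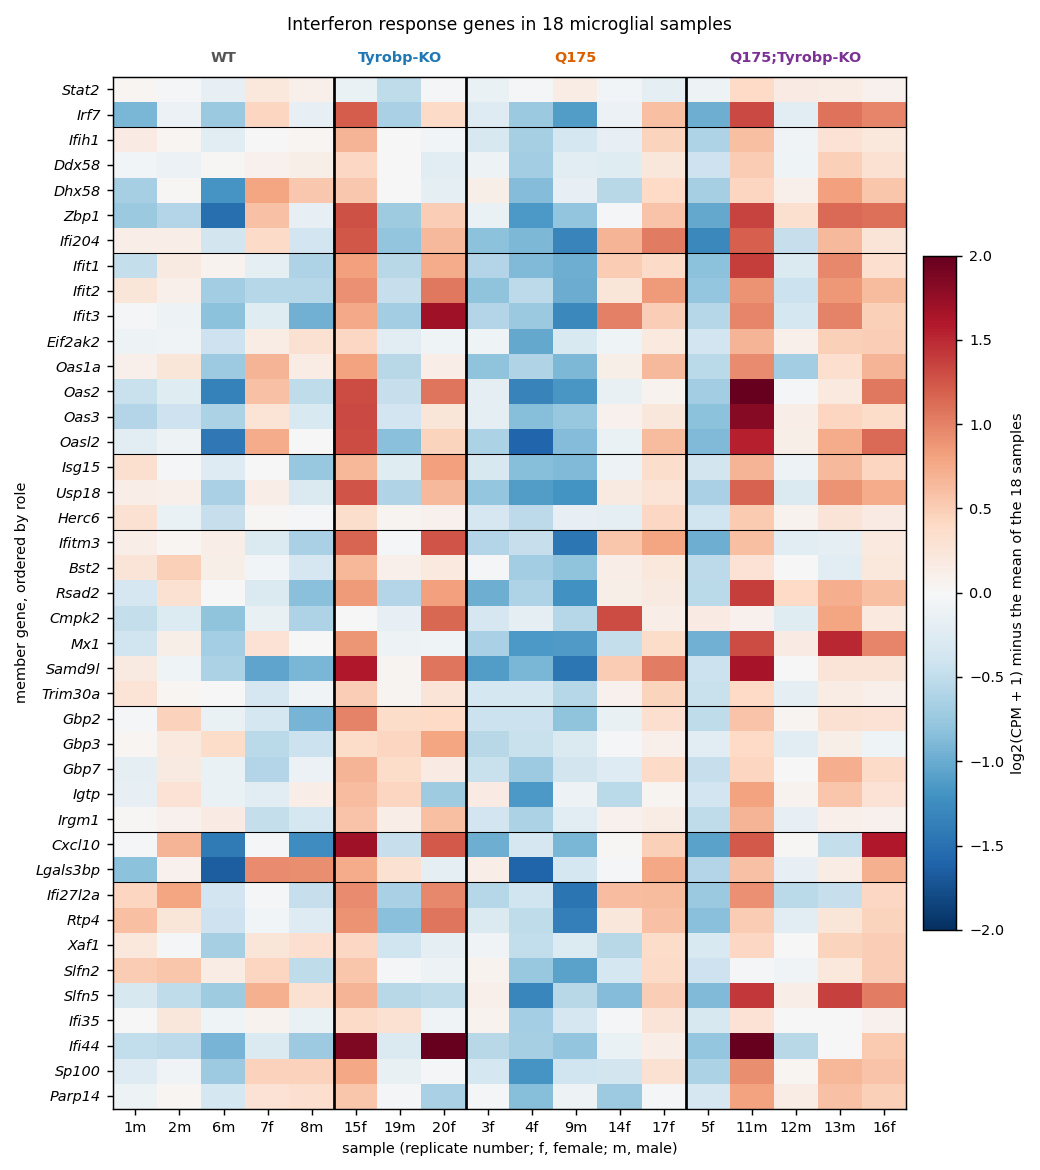
Each row is 1 of the 41 members and each column 1 of the 18 samples, by group and replicate number; the colour gives log2(CPM + 1) minus the mean of the gene over the 18 samples, and differences beyond 2 are drawn at 2. Columns of like colour over most rows include Tyrobp-KO replicate 15, Q175 replicate 17 and Q175;Tyrobp-KO replicates 11, 13 and 16 (high) and Q175 replicates 4 and 9 and Q175;Tyrobp-KO replicate 5 (low).

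As a summary of each sample, the mean of log2(CPM + 1) was taken over the 41 members. WT microglia were at 3.56 ± 0.23 (SD, n = 5) and Tyrobp-KO microglia at 4.04 ± 0.53 (SD, n = 3). Q175 microglia were at 3.41 ± 0.50 (n = 5), and Q175;Tyrobp-KO microglia at 3.93 ± 0.58 (n = 5). Within a group it ranged over 0.565 in WT, 1.05 in Tyrobp-KO, 1.17 in Q175 and 1.49 in Q175;Tyrobp-KO samples on the log2 scale, the last a 2.81-fold range. All 4 groups overlapped. The 2 Tyrobp-KO females were at 4.52 and 4.12 and the male at 3.47, below the WT female at 3.77. In Q175;Tyrobp-KO samples the sexes overlapped, with females at 3.10 and 4.19 and males from 3.61 to 4.59. In Q175 the male was at 2.97 and the females between 2.93 and 4.09.

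**Figure D2:**
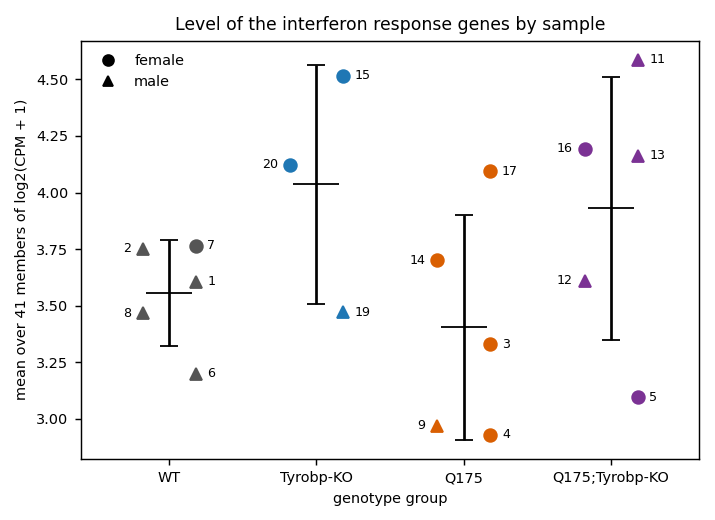
The y axis is the mean over the 41 members of log2(CPM + 1) in each sample, by genotype group on the x axis; circles are females, triangles males, numbers the replicates, and the bars the mean and SD of the group. Samples of the groups overlap, with WT between 3.20 and 3.77 and Q175;Tyrobp-KO between 3.10 and 4.59.

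In what follows, values of a gene are listed by group in the order of replicates given above. Signalling and transcription factors came first in the chain. *Stat2* (ENSMUSG00000040033, chr10:128270559-128292849), a subunit of ISGF3, had 40.4, 38.6, 34.97, 45.7 and 42.1 CPM in WT, 35.7, 27.2 and 38.7 in Tyrobp-KO, 35.9, 38.6, 43.5, 37.9 and 34.6 in Q175 and 36.3, 52.2, 44.2, 43.6 and 41.8 in Q175;Tyrobp-KO samples. It was the steadiest member, and its lowest value was in Tyrobp-KO replicate 19. *Irf7* (ENSMUSG00000025498, chr7:141262706-141266481), the factor that amplifies type I interferon production, had 2.98, 5.94, 3.48, 9.08 and 5.70 CPM in WT, 16.3, 3.79 and 8.80 in Tyrobp-KO, 5.25, 3.50, 2.46, 5.90 and 10.4 in Q175 and 2.79, 17.7, 5.44, 14.9 and 13.7 in Q175;Tyrobp-KO samples. The Q175;Tyrobp-KO samples, lowest in replicate 5 and highest in replicate 11, spanned the values of every other sample except Q175 replicate 9.

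Sensors of foreign nucleic acid formed the next group of 5. *Ifih1* (ENSMUSG00000026896, chr2:62595798-62646255), which encodes the RNA sensor MDA5, had 44.2, 40.6, 33.5, 39.6 and 40.7 CPM in WT, 63.8, 39.6 and 37.98 in Tyrobp-KO, 31.6, 24.6, 30.9, 34.9 and 53.8 in Q175 and 25.3, 60.2, 37.5, 48.6 and 45.6 in Q175;Tyrobp-KO samples. *Ddx58* (ENSMUSG00000040296, chr4:40203773-40239828), which encodes the RNA sensor RIG-I, had 36.4, 34.8, 38.6, 40.1 and 41.3 CPM in WT, 51, 37.5 and 32.8 in Tyrobp-KO, 35.1, 23.1, 32.2, 31.8 and 44.3 in Q175 and 28.3, 54.1, 35.6, 53.3 and 46.9 in Q175;Tyrobp-KO samples. Tyrobp-KO replicate 15 was highest for *Ifih1*, Q175;Tyrobp-KO replicate 11 for *Ddx58* and Q175 replicate 4 lowest for both, and all groups overlapped. *Ifi204* (ENSMUSG00000073489, chr1:173747293-173766943), a DNA sensor of the HIN-200 family, had 15.1, 15.2, 10.5, 18.2 and 10.3 CPM in WT, 33.8, 7.49 and 21.97 in Tyrobp-KO, 7.32, 6.90, 4.87, 22.6 and 29.4 in Q175 and 5.04, 32.6, 9.65, 22.01 and 16.6 in Q175;Tyrobp-KO samples. It was highest in Tyrobp-KO replicate 15 and lowest in Q175 replicate 9, and the groups overlapped. *Dhx58*, the regulator LGP2 of both RNA sensors, ranged from 4.30 to 20.3 CPM over the 18 samples, and *Zbp1*, a sensor of Z-form nucleic acid, from 0.276 to 8.24 CPM.

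Effectors that bind RNA or act on translation were the largest group with a known task, with 8 members. *Ifit1* (ENSMUSG00000034459, chr19:34640871-34650009), which binds viral RNA that lacks the host's cap methylation, had 3.35, 5.87, 5.35, 4.36 and 2.96 CPM in WT, 9.68, 3.13 and 9.13 in Tyrobp-KO, 3.03, 2.30, 2.09, 7.65 and 6.92 in Q175 and 2.43, 14.8, 3.96, 10.7 and 6.65 in Q175;Tyrobp-KO samples. *Ifit3* (ENSMUSG00000074896, chr19:34583531-34588731), a partner of *Ifit1*, had 13.6, 12.9, 7.45, 11.7 and 6.68 CPM in WT, 24.3, 8.23 and 47.6 in Tyrobp-KO, 9.02, 7.91, 5.11, 29.2 and 20.1 in Q175 and 9.04, 28.5, 10.7, 28.7 and 19.7 in Q175;Tyrobp-KO samples. Its highest values were in Tyrobp-KO replicate 20 and Q175 replicate 14, which are not the samples where most members peaked. *Oasl2* (ENSMUSG00000029561, chr5:114896936-114912234), an oligoadenylate synthetase-like protein, had 7.24, 7.97, 2.54, 14.96 and 8.65 CPM in WT, 22.7, 4.35 and 11.98 in Tyrobp-KO, 5.17, 2.21, 4.27, 7.71 and 13.9 in Q175 and 4.19, 27.1, 9.44, 15.1 and 19.9 in Q175;Tyrobp-KO samples. It was highest in Q175;Tyrobp-KO replicate 11 and Tyrobp-KO replicate 15. *Ifit2* ranged from 10.3 to 45.6 CPM and *Eif2ak2*, the RNA-dependent kinase PKR that halts translation, from 21.3 to 71.8 CPM. The oligoadenylate synthetases, which activate RNase L, ranged from 2.42 to 11.3 CPM for *Oas1a*, from 0.441 to 16.7 CPM for *Oas2* and from 0.092 to 5.99 CPM for *Oas3*.

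ISG15 is a ubiquitin-like protein that is joined to other proteins during the response. *Isg15* (ENSMUSG00000035692, chr4:156199424-156200818) had 4.31, 3.17, 2.59, 3.27 and 1.53 CPM in WT, 5.75, 2.62 and 6.55 in Tyrobp-KO, 2.44, 1.38, 1.33, 2.98 and 4.45 in Q175 and 2.31, 5.86, 2.998, 5.69 and 4.76 in Q175;Tyrobp-KO samples. *Usp18* (ENSMUSG00000030107, chr6:121245906-121270917), which removes ISG15 and also dampens signalling at IFNAR2, had 7.99, 7.76, 4.19, 7.99 and 5.70 CPM in WT, 18.6, 4.35 and 11.8 in Tyrobp-KO, 3.77, 2.76, 2.58, 8.23 and 8.90 in Q175 and 4.19, 17.4, 5.68, 14.3 and 12.7 in Q175;Tyrobp-KO samples. Both were lowest in Q175 replicates 9 and 4. Tyrobp-KO replicate 20 was highest for *Isg15* and replicate 15 for *Usp18*, and the groups overlapped. *Herc6*, the main ISG15 ligase of the mouse, was steadier, from 22.4 to 47.2 CPM.

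The antiviral restriction factors act at separate steps of infection. *Ifitm3* (ENSMUSG00000025492, chr7:141009586-141010770), which blocks fusion of viruses with the endosome, had 7.99, 7.36, 7.998, 5.66 and 4.22 CPM in WT, 17.3, 7.07 and 18.5 in Tyrobp-KO, 4.44, 4.97, 2.01, 11.02 and 13.1 in Q175 and 3.15, 11.3, 5.96, 6.22 and 8.32 in Q175;Tyrobp-KO samples. *Bst2* (ENSMUSG00000046718, chr8:71534255-71537456), or tetherin, which holds virus particles at the cell surface, had 21.3, 24.9, 19.1, 16.99 and 13.7 CPM in WT, 28.4, 19.04 and 20.2 in Tyrobp-KO, 17.3, 10.5, 9.66, 19.3 and 20.5 in Q175 and 11.9, 21.7, 17.5, 15.1 and 20.6 in Q175;Tyrobp-KO samples. *Ifitm3* in Tyrobp-KO replicates 15 and 20 was above every other sample, and *Bst2* overlapped in all groups. *Rsad2* (ENSMUSG00000020641, chr12:26442746-26456452), or viperin, which makes a chain-terminating nucleotide, had 3.35, 5.74, 4.47, 3.48 and 2.08 CPM in WT, 8.89, 2.67 and 8.73 in Tyrobp-KO, 1.77, 2.58, 1.37, 4.92 and 5.21 in Q175 and 2.79, 13.3, 6.20, 8.10 and 7.34 in Q175;Tyrobp-KO samples. *Cmpk2* (ENSMUSG00000020638, chr12:26469204-26479837), a nucleotide kinase encoded beside *Rsad2*, had 3.19, 3.78, 2.32, 4.21 and 2.79 CPM in WT, 4.84, 4.16 and 11.9 in Tyrobp-KO, 3.62, 4.14, 2.90, 13.3 and 5.35 in Q175 and 5.52, 5.17, 3.89, 8.98 and 5.66 in Q175;Tyrobp-KO samples. The neighbours differed: *Rsad2* peaked in Q175;Tyrobp-KO replicate 11, and *Cmpk2* in Q175 replicate 14 and Tyrobp-KO replicate 20. *Mx1* (ENSMUSG00000000386, chr16:97447035-97462907), a dynamin-like GTPase that carries a disabling deletion in C57BL/6 mice, had 8.95, 13.2, 7.17, 15.03 and 12.1 CPM in WT, 23.2, 11.2 and 11.3 in Tyrobp-KO, 7.32, 4.87, 4.99, 8.43 and 15.9 in Q175 and 5.70, 31.3, 13.6, 36.4 and 24.9 in Q175;Tyrobp-KO samples. *Samd9l* (ENSMUSG00000047735, chr6:3372257-3399572), a cytosolic restriction factor, had 16.4, 13.5, 8.94, 6.39 and 7.17 CPM in WT, 45.8, 14.9 and 31.4 in Tyrobp-KO, 6.06, 7.17, 4.67, 20.9 and 30.3 in Q175 and 10.4, 47.4, 14.3, 17.3 and 17.5 in Q175;Tyrobp-KO samples. *Mx1* was highest in Q175;Tyrobp-KO replicates 13, 11 and 16, and *Samd9l* in Q175;Tyrobp-KO replicate 11 and Tyrobp-KO replicate 15. *Trim30a*, a TRIM protein of innate signalling, ranged from 68.5 to 144 CPM.

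Interferon-inducible GTPases act on membranes around intracellular pathogens and respond to interferon gamma as well. *Gbp2* (ENSMUSG00000028270, chr3:142620602-142638008) had 6.28, 9.38, 5.85, 4.87 and 2.96 CPM in WT, 14.04, 8.75 and 8.87 in Tyrobp-KO, 4.58, 4.60, 3.30, 5.77 and 8.54 in Q175 and 4.31, 10.1, 6.82, 8.28 and 8.20 in Q175;Tyrobp-KO samples. *Gbp3* (ENSMUSG00000028268, chr3:142560026-142573209) had 12.7, 14.2, 16.2, 8.13 and 8.82 CPM in WT, 16.1, 16.9 and 21.97 in Tyrobp-KO, 8.06, 8.74, 9.83, 12.1 and 13.3 in Q175 and 10.5, 16.6, 10.4, 13.4 and 11.5 in Q175;Tyrobp-KO samples. Tyrobp-KO replicate 15 was highest for *Gbp2* and replicate 20 for *Gbp3*, and Q175 replicate 3 was lowest for *Gbp3*. *Igtp* (ENSMUSG00000078853, chr11:58199556-58207591), an immunity-related GTPase, had 22.6, 31.2, 23, 21.7 and 27.9 CPM in WT, 39.5, 34.8 and 15.2 in Tyrobp-KO, 28.7, 10.9, 23.6, 17.1 and 26.6 in Q175 and 19.2, 45.02, 26.6, 37.9 and 31.1 in Q175;Tyrobp-KO samples. Tyrobp-KO replicate 20 was the lowest of its group for *Igtp* and the highest for *Gbp3*. *Gbp7* ranged from 19.4 to 55 CPM and *Irgm1*, another immunity-related GTPase, from 6.90 to 18.6 CPM.

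Of the genes for secreted proteins, *Cxcl10* (ENSMUSG00000034855, chr5:92346638-92348889), a chemokine that draws T cells, had 3.04, 5.67, 0.552, 3.05 and 0.767 CPM in WT, 12.5, 2.01 and 8.73 in Tyrobp-KO, 1.11, 2.30, 1.21, 3.24 and 4.81 in Q175 and 0.971, 8.74, 3.24, 1.996 and 11.6 in Q175;Tyrobp-KO samples. It was the most variable member within groups, lowest in WT replicate 6 and highest in Tyrobp-KO replicate 15. *Lgals3bp* ranged from 24.99 to 156 CPM, and WT samples held both its lowest and its highest value.

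**Figure D3:**
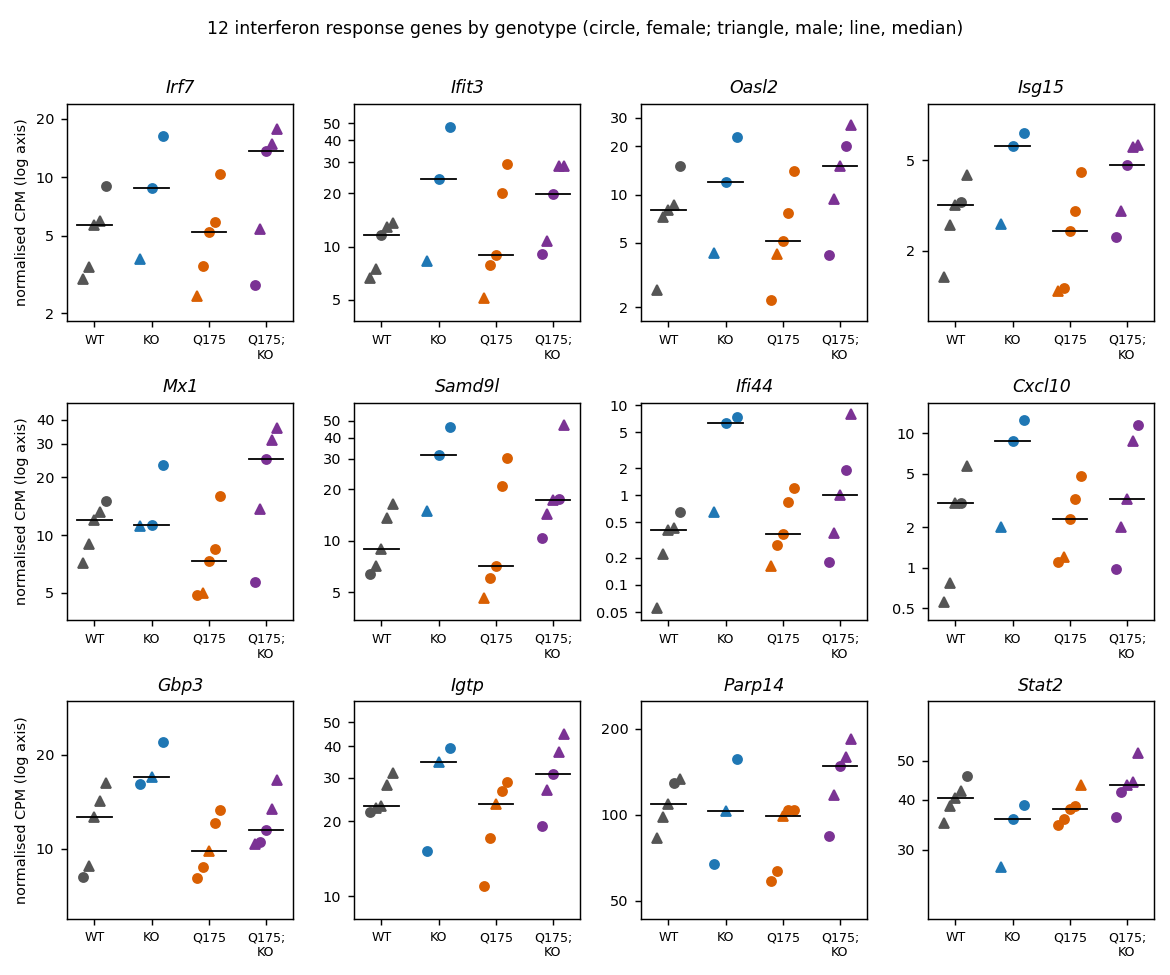
Normalised CPM of 12 members on log axes, 1 panel a gene, by genotype (KO is Tyrobp-KO and Q175;KO is Q175;Tyrobp-KO); circles are females, triangles males, and lines the group medians. In the 4 comparisons of pairs of groups, the groups overlap in each panel apart from *Ifi44* in Tyrobp-KO against WT, where the lowest Tyrobp-KO sample (0.655 CPM) and the highest WT sample (0.653 CPM) almost touch.

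The other induced genes were mixed in task. *Ifi27l2a* (ENSMUSG00000079017, chr12:103442167-103443680), a small membrane protein, had 10.1, 13.2, 5.29, 7.04 and 4.98 CPM in WT, 14.8, 4.26 and 14.9 in Tyrobp-KO, 4.51, 5.24, 1.97, 11.5 and 11.7 in Q175 and 3.88, 14.4, 4.62, 4.93 and 9.91 in Q175;Tyrobp-KO samples. *Slfn2* (ENSMUSG00000072620, chr11:83065112-83070678), a Schlafen protein, had 5.38, 5.60, 3.97, 5.01 and 2.14 CPM in WT, 5.57, 3.37 and 3.18 in Tyrobp-KO, 3.70, 1.66, 1.13, 2.53 and 4.81 in Q175 and 2.37, 3.34, 3.27, 4.17 and 5.32 in Q175;Tyrobp-KO samples. *Ifi27l2a* was highest in Tyrobp-KO replicates 20 and 15, *Slfn2* in WT replicate 2, and Q175 replicate 9 was lowest for both. *Ifi44* (ENSMUSG00000028037, chr3:151730922-151749960), a cytoplasmic protein with a GTP-binding motif, had 0.426, 0.405, 0.0552, 0.653 and 0.219 CPM in WT, 6.35, 0.655 and 7.34 in Tyrobp-KO, 0.37, 0.276, 0.161, 0.843 and 1.21 in Q175 and 0.182, 7.96, 0.379, 0.998 and 1.89 in Q175;Tyrobp-KO samples. These values rest on few reads in most samples, 28 counts over the 5 WT samples, 52 over the Q175 samples, 230 over the Tyrobp-KO samples and 249 over the Q175;Tyrobp-KO samples, 174 of the last in replicate 11. *Parp14* (ENSMUSG00000034422, chr16:35832874-35871544), a mono-ADP-ribosyltransferase, had 98.1, 109, 82.7, 129 and 133 CPM in WT, 156, 103 and 67.4 in Tyrobp-KO, 104, 58.3, 98.9, 63.6 and 104 in Q175 and 83.9, 185, 118, 159 and 148 in Q175;Tyrobp-KO samples. Tyrobp-KO replicate 20 and Q175 replicates 4 and 14 were the lowest for *Parp14*, so replicates 20 and 14, high for *Ifit3* and *Cmpk2*, were low here. Ranges of the rest were 4.59 to 29.3 CPM for *Rtp4*, a receptor chaperone, 13.5 to 31.4 CPM for *Xaf1*, an antagonist of the apoptosis inhibitor XIAP, 1.38 to 14.7 CPM for *Slfn5*, 10.9 to 23.96 CPM for *Ifi35* and 10.9 to 50.6 CPM for *Sp100*, a protein of nuclear bodies.

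Tyrobp-KO microglia were compared with WT microglia for the effect of the deletion alone. Most members were higher in Tyrobp-KO samples, but no member passed the test. At an FDR of 0.1, edgeR's quasi-likelihood test called 0 of 41 members and 4 of 18017 genes (0.0222%). The log2 fold change was above 0 for 37 of 41 members (90.2%) and for 52.2% of all genes tested. Its median was 0.57 over the members and 0.02 over all genes. At an unadjusted p under 0.05, 10 of 41 members were higher (24.4%), against 3.66% of all genes, and 0 were lower. DESeq2 called 2 members, *Ifi44* and *Samd9l*, and 168 of the same 18017 genes.

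The largest difference was in *Ifi44*, at 4.78 ± 3.61 CPM (SD, n = 3) in Tyrobp-KO and 0.352 ± 0.226 CPM (SD, n = 5) in WT samples (log2 fold change 3.77, SE 0.77, edgeR adjusted p = 0.565). Replicates 15 and 20 were at 6.35 and 7.34 CPM, and replicate 19 at 0.655 CPM, next to the highest WT sample. Its groups did not overlap, as was so in this direction for 1 of 41 members (2.44%) and for 2.18% of all genes. *Samd9l* was 30.7 ± 15.4 CPM (n = 3) against 10.5 ± 4.33 CPM (n = 5) (log2 fold change 1.54, SE 0.40, edgeR adjusted p = 0.565), higher in 14 of 15 pairs of a Tyrobp-KO and a WT sample. *Ifitm3* was 14.3 ± 6.27 CPM (n = 3) against 6.64 ± 1.66 CPM (n = 5) (log2 fold change 1.09, SE 0.35, edgeR adjusted p = 0.61), higher in 12 of 15 pairs. The other members with an unadjusted p under 0.05 were *Ifit3*, *Cmpk2*, *Gbp7*, *Ifit2*, *Gbp2*, *Oas3* and *Irgm1*. By role, all 8 RNA-binding effectors, all 7 restriction factors, all 5 sensors and all 5 GTPases were above 0, with medians of 0.83, 0.815, 0.24 and 0.58 on the log2 scale, while *Stat2* was at -0.26 and *Slfn2* at -0.14. Without Tyrobp-KO replicate 15 the median of the members was 0.22, with 26 of 41 above 0 and 5 at an unadjusted p under 0.05, and 6 were left at that p without replicate 20 or without WT replicate 8. Without replicate 19 it was 0.72, with 39 above 0 and 21 at an unadjusted p under 0.05. With sex as a term the median was 0.16, with 27 of 41 above 0 and 3 at an unadjusted p under 0.05. All members counted at that p in these fits were higher. Over all genes, 788 of 17864 were higher at that p without Tyrobp-KO replicate 15. Without replicates 19 and 20 these were 733 of 17961 and 336 of 17876. They were 549 of 17887 without WT replicate 8 and 195 of 18017 with sex as a term.

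Of the 20 microglial markers, 18 had log2 fold changes above 0 in this comparison, with a median of 0.28. edgeR called no marker of any cell type at the FDR of 0.1. At an unadjusted p under 0.05, 0 of the microglial and 7 of the 15 astrocyte markers were higher. So were 3 of 10 monocyte and neutrophil, 2 of 6 border-associated macrophage, 3 of 10 neuron and 1 of 10 oligodendrocyte markers, and 1 oligodendrocyte marker was lower. All 10 markers of monocytes and neutrophils, all 15 of astrocytes and all 6 tested of 8 of border-associated macrophages had log2 fold changes above 0 in Tyrobp-KO against WT, with medians of 1.07, 0.66 and 1.12. The monocyte and neutrophil markers summed to between 55.5 and 194 CPM in Tyrobp-KO and between 6.35 and 174 CPM in WT samples, and among them *Ngp*, *Camp* and *Cxcr2* were at 0 in at least 1 of the 18 samples. The border-associated macrophage markers summed to between 20.98 and 25.2 CPM in Tyrobp-KO and between 9.003 and 21.4 CPM in WT samples, with *Pf4* and *Lyve1* at 0 in at least 1 of the 18. Tyrobp-KO replicate 19, where the interferon response genes were lowest, had the highest sum of monocyte and neutrophil markers, 194 CPM, and WT replicate 6, the lowest WT sample, had 174 CPM. The lymphocyte markers never passed 4.63 CPM in sum. The part of these cells in the differences was not tested, and in bulk samples fewer cells of a type and less RNA per cell cannot be told apart.

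Q175;Tyrobp-KO microglia were compared with Q175 microglia for the effect of the deletion in the model. The members were again higher without *Tyrobp*, and again no member passed the test. At an FDR of 0.1, edgeR called 0 of 41 members and 2 of 18059 genes (0.0111%), and DESeq2 0 members and 41 genes. The log2 fold change was above 0 for 39 of 41 members (95.1%), against 44.9% of all genes, with *Ifitm3* (-0.03) and *Cmpk2* below 0. The median was 0.50 over the members and -0.05 over all genes. At an unadjusted p under 0.05, 11 of 41 members were higher (26.8%), against 3.45% of all genes, and 0 were lower. No member's groups were apart, against 0.46% of genes that were higher without overlap. With total counts in place of TMM the median of all genes rose to 0.08 and that of the members to 0.63, with 41 of 41 above 0, so that the members lay 0.55 above all genes under both scalings. The share of genes at an unadjusted p under 0.05 that were higher moved from 43.1% to 72.6%.

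*Mx1* had the smallest p, at 22.4 ± 12.6 CPM (SD, n = 5) in Q175;Tyrobp-KO and 8.31 ± 4.53 CPM (SD, n = 5) in Q175 samples (log2 fold change 1.42, SE 0.45, edgeR adjusted p = 0.533). Replicates 11, 13 and 16 were above every Q175 sample, and replicate 5 was below 3 of them. *Parp14* was 139 ± 38.95 against 85.7 ± 22.8 CPM (n = 5 each) (log2 fold change 0.68, SE 0.22, edgeR adjusted p = 0.533), higher in 22 of 25 pairs. *Rsad2* was 7.55 ± 3.81 against 3.17 ± 1.79 CPM (n = 5 each) (log2 fold change 1.23, SE 0.43, edgeR adjusted p = 0.533), higher in 23 of 25 pairs. The other members with an unadjusted p under 0.05 were *Oas2*, *Sp100*, *Slfn5*, *Oasl2*, *Eif2ak2*, *Usp18*, *Zbp1* and *Gbp7*. All 8 RNA-binding effectors, all 5 sensors and all 5 GTPases were above 0, with medians of 0.66, 0.38 and 0.48 on the log2 scale. The median depended on single samples, and without Q175;Tyrobp-KO replicate 13 the median of the members was 0.35 and without Q175 replicate 17 it was 0.69. The count at an unadjusted p under 0.05 was between 3 (without Q175;Tyrobp-KO replicate 11) and 21 (without Q175;Tyrobp-KO replicate 5), and fell below 6 also without Q175 replicate 4 or 9 or without Q175;Tyrobp-KO replicate 13 or 16, and rose to 20 without Q175 replicate 17. It was 23 without the 3 samples of the highest glia and neuron marker score, and the median 0.68. All members so counted were higher. Over all genes, 623 of 18059 were higher at that p with all samples. Without Q175;Tyrobp-KO replicates 11, 5, 13 and 16 these were 248 of 17943, 1248 of 18017, 204 of 17956 and 276 of 18027. Without Q175 replicates 17, 4 and 9 they were 661 of 17976, 284 of 17760 and 1316 of 18013. Without the 3 samples they were 782 of 17882.

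Here 10 of 10 markers of monocytes and neutrophils were above 0 too, with a median of 0.46 and sums between 22.7 and 84.2 CPM in Q175;Tyrobp-KO and between 16.8 and 56.0 CPM in Q175 samples. Astrocyte markers went the other way by fold change, 2 of 15 above 0 with a median of -0.35. Their sums, however, were between 937 and 4068 CPM in Q175;Tyrobp-KO samples (median 3441) and between 1538 and 7423 CPM in Q175 samples (median 2236). Of the neuron and oligodendrocyte markers 0 of 10 each were above 0, and 0 of the 6 tested border-associated macrophage markers were above 0. Microglial markers were above 0 for 13 of 20 genes, with a median of 0.06, and 2 were higher at an unadjusted p under 0.05. Monocyte and neutrophil markers summed to 84.2 CPM in Q175;Tyrobp-KO replicate 13, where members were high, and to 32.95 CPM in replicate 5, where most were lowest. The part of these cells in the result was not tested. In Q175;Tyrobp-KO replicate 11, where most members peaked, the monocyte and neutrophil markers summed to 24.1 CPM and the glia and neuron marker score was the lowest of the 18 samples. With that score as a term, the median of the members was 0.48, with 41 of 41 above 0. With sex as a term it was 0.51, with 41 of 41 above 0, and 2 members had an unadjusted p under 0.05 with either term. Of 18059 genes, 144 were higher at that p with sex as a term and 206 with the score.

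The comparisons of Tyrobp-KO with WT and of Q175;Tyrobp-KO with Q175 use different samples. Of the 41 members, 35 were above 0 in both, 4 in the second only (*Stat2*, *Xaf1*, *Slfn2* and *Parp14*) and 2 in the first only (*Cmpk2* and *Ifitm3*). Of all genes, 52.2% were above 0 in the first and 44.9% in the second. The share above 0 in both is not given here, so the count of 35 has no such baseline. *Gbp7*, at 0.58 and 0.51, was the 1 member with an unadjusted p under 0.05 in both, chosen after its values were seen. Among the 32 members with a promoter window, those with an ISRE core had a median of 0.58 in Tyrobp-KO against WT and of 0.51 in Q175;Tyrobp-KO against Q175 (n = 17), and those without one had 0.22 and 0.41 (n = 15). In Q175 against WT the medians with and without a core were -0.147 and -0.157, and for the interaction 0.0082 and 0.18. Ranges of the 2 sets overlapped, and *Ifi44*, with the largest values (3.77 and 1.92), had no core. A link to the core was not tested.

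**Figure D4:**
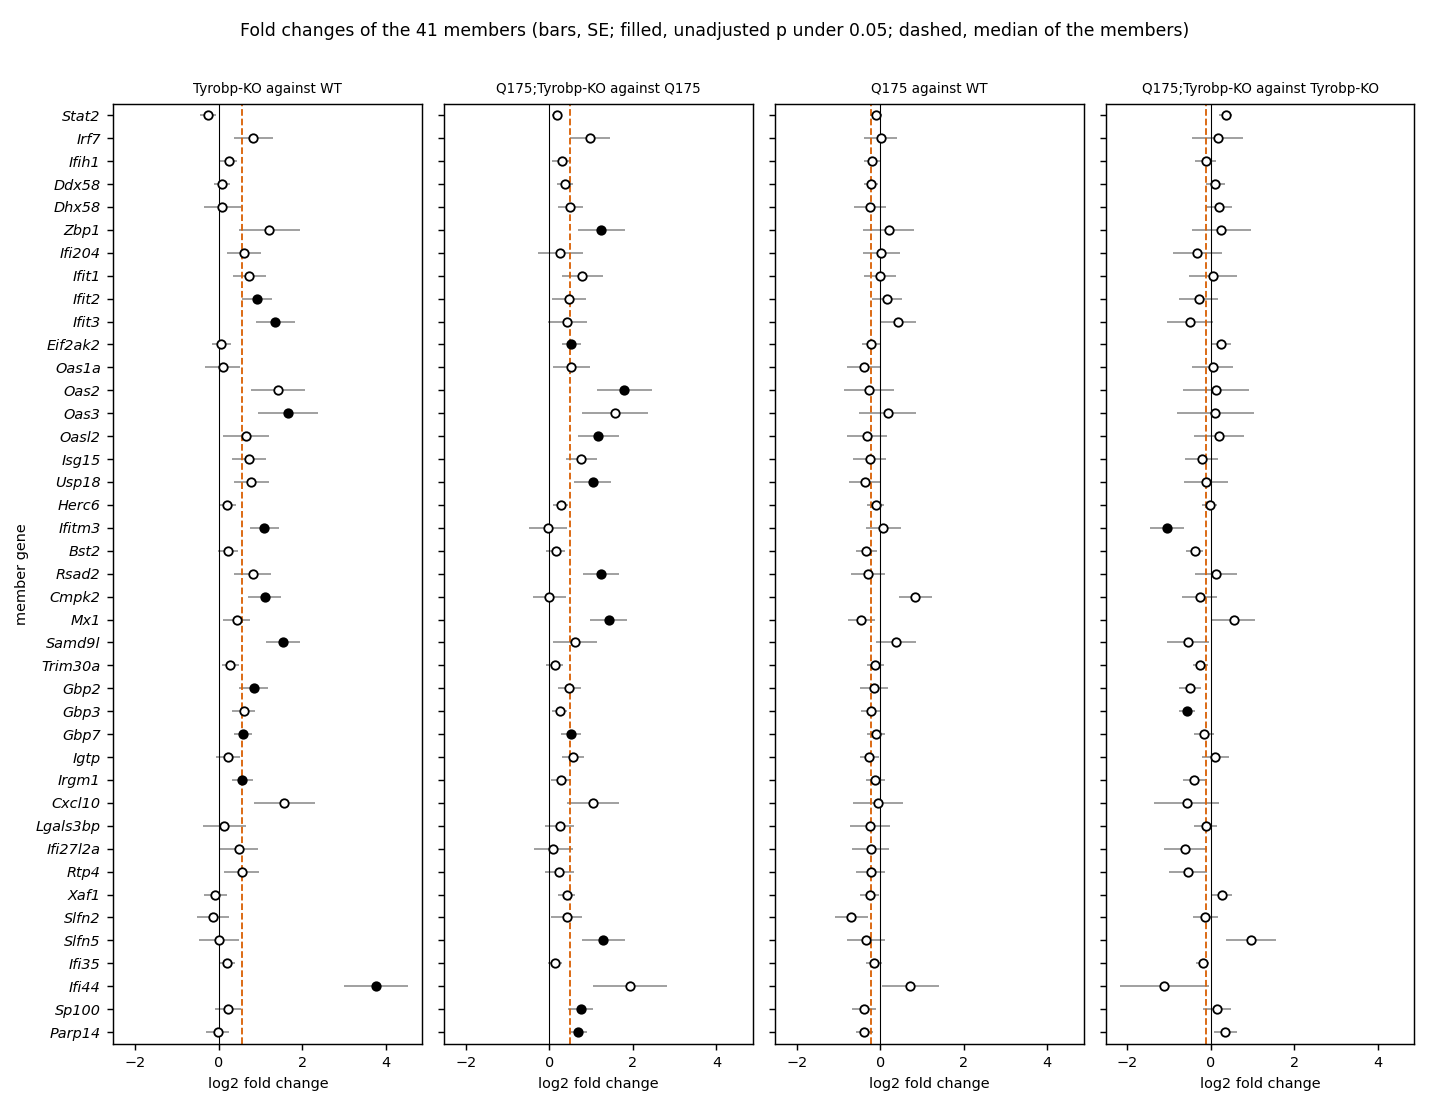
The log2 fold change of each member with its SE in the 4 comparisons of pairs of groups; filled points have an unadjusted p under 0.05, and the dashed line is the median of the 41 members. Points lie mostly right of 0 in both comparisons of *Tyrobp* deletion (medians 0.57 and 0.50) and around or left of it in both comparisons of the Q175 allele (medians -0.22 and -0.13).

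Whether the effect of *Tyrobp* deletion differed between Q175 and WT backgrounds was tested as an interaction over all 18 samples. edgeR called 0 of 41 members and 0 of 18613 genes (0%), with 1118 genes at an unadjusted p under 0.05, and DESeq2 0 members and 2 genes. The interaction was above 0 for 26 of 41 members and 53.3% of all genes, with a median of 0.12 over the members and 0.04 over all genes. At an unadjusted p under 0.05, 2 members were above 0 (4.88%), against 2.99% of all genes, and 0 were below. They were *Stat2* (log2 fold change 0.50, SE 0.20, edgeR adjusted p = 0.716) and *Parp14* (log2 fold change 0.78, SE 0.35, edgeR adjusted p = 0.716), which had log2 fold changes of -0.26 and -0.03 in Tyrobp-KO against WT and of 0.17 and 0.68 in Q175;Tyrobp-KO against Q175. *Cmpk2* came next (log2 fold change -1.05, SE 0.60, edgeR adjusted p = 0.716), and without the 3 samples of the highest glia and neuron marker score its value was 0.09. With total counts the median was 0.26 over the members and 0.15 over all genes. It was below 0 without Tyrobp-KO replicate 19 (-0.08), Q175 replicate 4 (-0.10) or 9 (-0.03), or Q175;Tyrobp-KO replicate 11 (-0.02), and it was 0.39 without Tyrobp-KO replicate 15 and 0.36 without Q175 replicate 17. With sex as a term it was 0.50, with 30 of 41 above 0, and with the glia and neuron marker score as a term 0.0080, with 21 of 41 above 0.

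Q175 microglia were compared with WT microglia for the effect of the Huntingtin allele. No member passed the test, and most lay below 0. edgeR called 0 of 41 members and 0 of 18266 genes (0%), with 1140 genes at an unadjusted p under 0.05, while DESeq2 called 234 genes and 0 members. The log2 fold change was above 0 for 10 of 41 members (24.4%) and for 46.7% of all genes, with medians of -0.22 and -0.02. At an unadjusted p under 0.05, 0 members were higher, against 5.47% of all genes, and 0 were lower, against 0.766%. The 3 members with the smallest p were *Cmpk2*, at 5.86 ± 4.25 CPM (SD, n = 5) in Q175 and 3.26 ± 0.756 CPM (SD, n = 5) in WT samples (log2 fold change 0.84, SE 0.40, edgeR adjusted p = 0.829), then *Parp14* (log2 fold change -0.38, SE 0.21, edgeR adjusted p = 0.909) and *Slfn2* (log2 fold change -0.69, SE 0.40, edgeR adjusted p = 0.931). *Cmpk2* was at 13.3 CPM in Q175 replicate 14 and between 2.90 and 5.35 CPM in the other Q175 samples, and without replicate 14 its log2 fold change was 0.28. All 5 GTPases and all 3 genes of ISG15 conjugation were below 0, with medians of -0.15 and -0.26.

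Astrocyte markers were above 0 for 15 of 15 genes in the same comparison, with a median of 1.06 and sums between 1538 and 7423 CPM in Q175 and between 830.5 and 1446 CPM in WT samples, and their part in the result was not tested. Markers of monocytes and neutrophils were above 0 for 1 of 10 genes, with a median of -0.81. When the glia and neuron marker score was added to the fit, the median of the members was -0.85, with 1 of 41 above 0. At an unadjusted p under 0.05, 8 members and 194 of 18266 genes were lower in that fit. The score did not overlap between the groups, at -0.71 to -0.35 in WT and 0.11 to 1.36 in Q175 samples. That fit therefore cannot separate the score from genotype. With sex as a term the median of the members was -0.50. Leaving out Q175 replicate 17 gave -0.40, and leaving out Q175 replicate 4 or 9 gave -0.10 or -0.11.

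Q175;Tyrobp-KO microglia were also compared with Tyrobp-KO microglia, for the Huntingtin allele on the Tyrobp-null background. Members lay on both sides of 0. edgeR called 0 of 41 members and 0 of 17723 genes (0%), with 2344 genes at an unadjusted p under 0.05, and DESeq2 called 680 genes and 0 members. The log2 fold change was above 0 for 18 of 41 members (43.9%) and for 48.7% of all genes, with medians of -0.13 and -0.01. At an unadjusted p under 0.05, 2 of 41 members were lower (4.88%), against 8.24% of all genes, and 0 were higher. *Gbp3* was 12.5 ± 2.61 CPM (SD, n = 5) against 18.4 ± 3.15 CPM (SD, n = 3) (log2 fold change -0.57, SE 0.19, edgeR adjusted p = 0.305), higher in 1 of 15 pairs. *Ifitm3* was 7.002 ± 3.05 CPM (n = 5) against 14.3 ± 6.27 CPM (n = 3) (log2 fold change -1.05, SE 0.41, edgeR adjusted p = 0.328). *Stat2* was 43.6 ± 5.73 CPM (n = 5) against 33.9 ± 5.98 CPM (n = 3) (log2 fold change 0.36, SE 0.16, edgeR adjusted p = 0.387), higher in 14 of 15 pairs. The median of the members was 0.18 without Tyrobp-KO replicate 15, -0.25 without Tyrobp-KO replicate 19 and 0.11 without the 3 samples of the highest glia and neuron marker score. It was also above 0 without Q175;Tyrobp-KO replicate 5, at 0.0016. Markers of endothelial cells were below 0 for 10 of 10 genes (median -1.29), with sums between 38.3 and 58.2 CPM in Q175;Tyrobp-KO and between 54.7 and 107 CPM in Tyrobp-KO samples, those of monocytes and neutrophils for 10 of 10 (median -1.21) and those of border-associated macrophages for 6 of 6 tested (median -1.30). Of the 20 microglial markers 3 were above 0 (median -0.27), and 8 were lower at an unadjusted p under 0.05. Their part in the result was not tested.

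Other genes of the interferon pathway were read from a list of 73. The ligand genes *Ifnb1* and *Ifng* did not reach 1 CPM in any sample and were not tested. The receptor genes *Ifnar1*, *Ifnar2*, *Ifngr1* and *Ifngr2*, the kinase genes *Jak1*, *Jak2* and *Tyk2*, and 7 genes for transcription factors were above 1 CPM in all 18 samples. No gene of the list was called in any comparison. In Tyrobp-KO against WT, 51 of 67 tested were above 0, with a median of 0.165, and 7 were higher at an unadjusted p under 0.05. Of all genes, 52.2% were above 0 and 3.66% higher at that p. The 3 with the smallest p were *Ifi203*, *Ccl5* and *Oasl1*, at 3.11 ± 1.52, 5.42 ± 3.53 and 2.34 ± 1.01 CPM (n = 3) against 1.13 ± 0.269, 1.19 ± 0.806 and 0.683 ± 0.435 CPM (n = 5). In Q175;Tyrobp-KO against Q175, 61 of 68 were above 0, with a median of 0.29, 10 of them at an unadjusted p under 0.05. The shares of all genes were 44.9% above 0 and 3.45% higher at that p. All 7 transcription factors and all 4 receptor genes of the list were above 0 in this comparison, with medians of 0.38 and 0.28. Among the smallest p values were those of *Mx2* (20.1 ± 7.24 against 11.03 ± 3.14 CPM) and *Rnf213* (298 ± 102 against 185 ± 38.5 CPM, n = 5 each). For Tyrobp-KO against WT, 6 of the 7 transcription factors and 3 of the 4 receptor genes were above 0, with medians of 0.029 and 0.09. For Q175 against WT, 0 of 7 and 0 of 4 were above 0, with medians of -0.213 and -0.155.

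In Q175 against WT, 14 of 67 genes of this list were above 0, against 46.7% of all genes, with a median of -0.17. *Tgtp1*, *Gbp6* and *Irgm2* had the smallest p there, and *Tgtp1* was at 0 in 4 of the 5 WT samples and at most 1.10 CPM in Q175 samples. *Irgm2*, an immunity-related GTPase, was 61.4 ± 12.5 CPM in Q175 and 78.8 ± 7.65 CPM in WT samples (n = 5 each), and *Gbp6* 1.41 ± 0.803 and 0.682 ± 0.0551 CPM. In Q175;Tyrobp-KO against Tyrobp-KO, 32 of 68 were above 0, near the 48.7% of all genes, with a median of -0.01. The RNA sensors of the endosome *Tlr7* and *Tlr3* were at 294 ± 43.2 against 423 ± 40.2 CPM and at 82.5 ± 13.7 against 114 ± 11.1 CPM (n = 5 and 3), and *Adar*, an RNA-editing enzyme, was 93.6 ± 9.46 against 74.9 ± 4.70 CPM. None of the 3 passed the FDR of 0.1. For the interaction, 45 of 68 were above 0, against 53.3% of all genes, with a median of 0.16, and *Tgtp1*, *Adar* and *Rnf213* had the smallest p.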

How the data were processed

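RNA of CD11b-bead-enriched striatal cells was amplified with SMART-Seq v4, sequenced without strand information, aligned with STAR (GRCm38 by the methods, while the submitters' notes list the human build GRCh38) and counted with featureCounts. The deposited values are raw counts per gene from the authors. The methods name 1 striatum per sample and the labels both. The 55536 Ensembl identifiers all matched GENCODE M21. The table's 2 columns that no label names were not used.

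Genes that reached 1 CPM in any sample compared entered the test of edgeR 4.0.16 (R 4.3.3; TMM, quasi-likelihood test, Benjamini-Hochberg FDR of 0.1), for each pair of groups and for the interaction over 4 groups, and the scripts were tested on simulated data. Alternatives were DESeq2 1.42.0, other scalings, filters, covariates and single samples left out. Total counts of 11260410 to 29771983 limit precision for low genes such as *Ifi44*. The members and lists were chosen with earlier results of these data known. Named with values were representatives of each role and the 3 members of smallest p in each comparison, and all members were named. Some genes of the other lists are not reported here by name. Levels between genes were compared per kb of exonic length. Promoters came from RefSeq (GRCm38.p6).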

Additional observations from a re-analysis of the deposited data

Results flagged for a closer look

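Among 126 sets of values in 1 group of 5 samples, of single members or of their mean level, 4 held a sample far from the other 4 by Dixon's criterion, which chance meets in about 1 set in 20. Of these, 3 were in Q175;Tyrobp-KO replicate 11, with *Oas3* at 5.99 CPM, *Samd9l* at 47.4 CPM and *Ifi44* at 7.96 CPM. The other 4 samples of that group were between 0.121 and 1.64 CPM for *Oas3*, between 10.4 and 17.5 CPM for *Samd9l* and between 0.182 and 1.89 CPM for *Ifi44*. The fourth was *Cmpk2* at 13.3 CPM in Q175 replicate 14, with the other Q175 samples between 2.90 and 5.35 CPM.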

How the results depend on the processing

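No paired analysis was possible because no replicate number is shared between groups. Members called stayed at 0 in all comparisons under the alternatives run, except in Tyrobp-KO against WT, where DESeq2 called 2 (*Ifi44*, log2 fold change 3.80, DESeq2 adjusted p = 0.0021, and *Samd9l*, 1.54, DESeq2 adjusted p = 0.067) and edgeR without a filter called 1 (*Ifi44*, edgeR adjusted p = 0.0712). Over the 18 alternatives the log2 fold change of *Ifi44* lay between 2.25 and 4.29 with adjusted p between 0.0021 and 0.991, and that of *Samd9l* between 1.13 and 1.88 with adjusted p between 0.067 and 0.991. Genes called by DESeq2 numbered 234 in Q175 against WT, 41 in Q175;Tyrobp-KO against Q175, 168 in Tyrobp-KO against WT, 680 in Q175;Tyrobp-KO against Tyrobp-KO and 2 for the interaction. In Q175;Tyrobp-KO against Q175 edgeR called 9 genes without a filter, 15 in 1 fit over all groups, 1 at an FDR of 0.05, with a term for sex or for the glia and neuron marker score, or without the 3 samples of the highest score, and 1 to 5 with a sample left out (5 without Q175 replicate 9). In Tyrobp-KO against WT it called 15 without a filter, 8 in 1 fit over all groups, 2 with the score as a term and 2 to 8 with a sample left out (8 without WT replicate 6, 2 without Tyrobp-KO replicate 15 or 19). With the score as a term, the median of the members in Q175 against WT was -0.845, and *Cmpk2* reversed to -0.944 there and to 0.0712 in the interaction, where it was also 0.0918 without the 3 samples. The score did not overlap between Q175 and WT samples, so the fit of these groups with it cannot separate the score from genotype. Leaving out these samples was chosen after seeing the data. The causes of these changes were not tested.

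With total counts in place of TMM, *Irf7*, *Ifi204* and *Ifitm3* changed sign in Q175 against WT, *Ifitm3* and *Cmpk2* in Q175;Tyrobp-KO against Q175, *Slfn5* in Tyrobp-KO against WT and *Usp18* and *Herc6* in Q175;Tyrobp-KO against Tyrobp-KO. The share of genes at an unadjusted p under 0.05 that were higher moved from 53.7% to 40.5% in Tyrobp-KO against WT and from 37.7% to 59.1% in Q175;Tyrobp-KO against Tyrobp-KO. Sexes were unevenly spread over groups of 3 to 5 samples, and *Ifi44*, *Oas3*, *Oas2* and *Zbp1* had under 10 counts in at least 1 sample.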
